A study of Rattus norvegicus with 18 samples.

Results

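The T helper lineage transcription factors are the nuclear proteins that fix and maintain the type of a CD4+ T cell, and 10 of their genes were followed here by name: *Tbx21*, *Eomes*, *Gata3*, *Foxp3*, *Bcl6*, *Maf*, *Prdm1*, *Bhlhe40*, *Runx1* and *Runx3*. They were selected by name from tables of 32882 genes, and each of the 10 matched 1 row in each of 3 tables. The cells were T-MBP cells, an MBP-reactive CD4+ T cell line raised from a Lewis rat immunised with myelin basic protein (MBP). They had been marked by a retrovirus, edited with Cas9 protein and a single guide per target, restimulated with MBP and transferred into Lewis rats. The study describes transfer of KO together with control cells for the RNA of the parenchyma. The sample titles do not state this for the spleen libraries. Recipients of both sexes were used in the study, and the age behind each library is not given in the sources used here. Cells were sorted on day 3 after transfer and profiled by 3′ mRNA sequencing in 18 libraries, 3 per group. One table sets *Ets1*-KO against control cells in spinal cord parenchyma, another does so in spleen, and the last sets *Grk2*-KO against control cells in spleen. All control cells carried a non-targeting (NT) guide. In the joint transfers that the study describes, control cells carried blue fluorescent protein (BFP) and KO cells carried green fluorescent protein. With that marking the edit and the colour cannot be told apart. The labels do not say whether the 3 replicates of a group came from 3 animals, while the study calls all its replicates biological. The p-values rest on the spread between these libraries, which the main test pools over genes, in the parenchyma wholly.

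CD4+ T cells activated in the presence of different cytokines take up different programmes. T-bet, encoded by *Tbx21*, drives the T helper 1 (Th1) programme, and its relative eomesodermin, encoded by *Eomes*, does much of the same work in cytotoxic cells. GATA3 drives the T helper 2 (Th2) programme and is needed at lower levels in all T cells, FOXP3 defines regulatory T cells, and BCL6 defines follicular helper cells and is opposed by Blimp-1, the product of *Prdm1*. c-MAF, encoded by *Maf*, induces interleukin-10 and interleukin-4 and takes part in several lineages. BHLHE40 keeps interleukin-10 low in autoreactive T cells and is required for encephalitogenic function in mice, and RUNX1 and RUNX3 bind DNA with CBFβ and set the choice between CD4 and CD8 and between lineages. ETS1 is an ETS family factor of resting lymphocytes that cooperates with T-bet and RUNX proteins. GRK2 is a kinase that desensitises chemokine and sphingosine 1-phosphate receptors.

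The comparisons rest on the guides used for editing, which are shown 5′ to 3′ without the PAM, all in lower case, as listed by the study.
*Ets1* guide: tgctgctcggagttaacagt
*Grk2* guide: gatttgtcagaacctccgag
Non-targeting guide: gctgcatggggcgcgaatca

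*Ets1* lies on chromosome 8 from 33816385 to 33879625 and *Grk2* on chromosome 1 from 219536219 to 219544328 in Rnor_6.0, as annotated in the deposited tables. The place of each cut within the gene was not analysed here. The same annotation puts *Tbx21* on chromosome 10 (85032798 to 85049331, minus strand), *Gata3* on chromosome 17 (72429617 to 72450681, plus strand), *Maf* on chromosome 19 (48194803 to 48196748, minus strand) and *Prdm1* on chromosome 20 (49464918 to 49556518, minus strand). *Runx1* and *Bcl6* both lie on chromosome 11 (32769164 to 33003021 and 80255789 to 80279075), *Runx3* on chromosome 5 (153507092 to 153531137), *Bhlhe40* on chromosome 4 (140703618 to 140709319), *Eomes* on chromosome 8 (127144902 to 127151493) and *Foxp3* on chromosome X (15753174 to 15768522). All 10 are annotated as protein coding.

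*Tbx21* and *Maf* were the members with an adjusted p under 0.05 in a comparison with control, both of them in *Ets1*-KO cells, and the 250 bases before their annotated start in RefSeq (GRCr8) are therefore shown, with matches to the short ETS core GGAAG on either strand in capitals.
*Tbx21*, chr10:82595254-82595503, minus strand: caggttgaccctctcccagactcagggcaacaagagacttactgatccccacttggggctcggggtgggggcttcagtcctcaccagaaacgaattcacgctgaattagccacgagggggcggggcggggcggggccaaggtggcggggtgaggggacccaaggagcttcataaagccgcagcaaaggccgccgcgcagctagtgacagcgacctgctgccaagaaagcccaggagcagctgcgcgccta
*Maf*, chr19:60621357-60621606, minus strand: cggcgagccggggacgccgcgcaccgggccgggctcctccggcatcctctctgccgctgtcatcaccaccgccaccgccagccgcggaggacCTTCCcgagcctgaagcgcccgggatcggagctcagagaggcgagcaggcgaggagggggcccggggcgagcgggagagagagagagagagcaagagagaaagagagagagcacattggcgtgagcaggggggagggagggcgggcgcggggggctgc

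The *Maf* window held 1 match, written on the opposite strand as CTTCC, and the *Tbx21* window held none. All 10 members matched an entry in the RefSeq table, and 7 of them had at least 1 match in the window, with *Runx3* counted over its 2 annotated starts. Of all 33469 windows in the table, 63.3% held a match. The longer ETS sequence CCGGAAGT, which overlaps the short one, was in none of the members' windows and in 3.10% of all windows. These are matches of letters and say nothing of binding.

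Each library held between 898092 and 2248258 reads assigned to genes. The *Ets1*-KO libraries of the spleen were deeper, at 1909862 to 2248258 reads, than their controls at 898092 to 1213485, whereas in the parenchyma the KO libraries were the shallower ones, at 1246779 to 1411767 against 1437169 to 1546206, and depths overlapped in the *Grk2* experiment. Marker genes of CD4 T cells (*Cd3e*, *Cd3d*, *Cd3g*, *Cd4*, *Cd5*, *Cd2*, *Cd28* and *Lck*) were read in every group, with a summed level between 2300 and 3089 RPM (the reads of a gene scaled to a common library total) in each library. Summed levels were at most 9.89 RPM for 5 B cell genes, at most 43.9 for 8 myeloid genes and at most 2.16 for 4 microglial genes. Summed levels of 4 erythroid genes reached 48.3 RPM in the spleen of the *Ets1* experiment. Those of 6 neural genes, mostly *Mbp*, reached 64 RPM in the parenchyma and lay at 17.3 to 35.6 RPM in the spleen libraries. Among 5 matched CD8 and natural killer genes *Klrd1* carried most reads, with 103 to 136 RPM in the *Grk2* experiment and at most 35.1 in the *Ets1* experiment. *Grk2* mRNA was lower in *Grk2*-KO cells, with normalized counts of 166, 166 and 142 in control and 53.3, 64.2 and 87.3 in KO libraries (limma adjusted p = 1.76e-12). *Ets1* mRNA did not pass the test in *Ets1*-KO cells of either tissue (2400 ± 150 in control and 2551 ± 183 in KO libraries of the parenchyma, SD, n = 3, limma adjusted p = 0.56), and where the 3′ reads lie relative to the edit was not analysed here, so the *Ets1* label stands without a check from its mRNA. The study states that it tested the editing efficiency of its single KO lines before use, and its source images include an ETS1 protein blot of NT and KO cells.

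The level of each member in control cells was first compared between tissues, in RPM, as a description without a test because the tables were scaled separately. In bulk RNA, fewer cells expressing a gene and less of its RNA per cell cannot be told apart. *Maf*, *Prdm1*, *Bhlhe40* and *Runx3* were highest in the parenchyma and *Gata3* was lowest there. *Maf* was read at 257, 272 and 241 RPM in control cells of the parenchyma, at 75, 91.6 and 77.9 in the spleen of the *Ets1* experiment and at 39.9, 51.4 and 49.5 in the spleen of the *Grk2* experiment. The parenchymal mean was thus 3.15 times and 5.47 times the splenic means, and no libraries of the 3 sets overlapped. *Prdm1* was at 269 to 317 in the parenchyma, 133 to 153 in the spleen of the *Ets1* experiment and 125 to 152 in that of the *Grk2* experiment, so the parenchyma stood 2.04 and 2.10 times above and the spleens overlapped. *Bhlhe40* followed the same order, at 116 to 127 in the parenchyma, 47.9 to 72.5 and 48.3 to 58.2 in the spleens. *Runx3* was at 203 to 218 in the parenchyma, 102 to 124 in the spleen of the *Ets1* experiment and 88.2 to 101 in that of the *Grk2* experiment, and again no parenchymal library overlapped a splenic one.

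*Gata3* went the other way, with 259, 193 and 248 RPM in the parenchyma, 537, 480 and 444 in the spleen of the *Ets1* experiment and 387, 373 and 401 in the spleen of the *Grk2* experiment. Both spleen sets lay above all parenchymal libraries, by 2.09 and 1.66 times in the mean, and they did not overlap each other either. *Tbx21* gave no common order of tissues. It was read at 385, 376 and 395 in the parenchyma, at 526, 524 and 562 in the spleen of the *Ets1* experiment and at 290, 330 and 228 in the spleen of the *Grk2* experiment. Parenchymal *Tbx21* was therefore below one spleen set and above the other, without overlap.

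*Runx1* and *Bcl6* stood apart in the spleen of the *Ets1* experiment, in opposite directions. *Runx1* was at 174 to 205 RPM in the spleen of the *Ets1* experiment, at 73.8 to 89.9 in that of the *Grk2* experiment and at 80.2 to 96.7 in the parenchyma, whose range overlapped the *Grk2* experiment. *Bcl6* was at 1.65, 4.16 and 4.45 in the spleen of the *Ets1* experiment, from 11 reads in all, and at 28.8, 40.2 and 30.4 in the spleen of the *Grk2* experiment, a mean 9.69 times higher. Parenchymal control cells had 25.2 to 31.4, overlapping the *Grk2* experiment. Of 6207 genes tested in all 3 tables, 60.1% did not overlap between the 2 sets of spleen controls, 47.5% between parenchyma and spleen of the *Ets1* experiment and 62.3% between parenchyma and spleen of the *Grk2* experiment. Against these shares, 5, 7 and 6 of the 7 members tested in all 3 tables did not overlap. The tissues were compared across separate tables, 1 parenchymal and 2 splenic, and the labels do not say how these were run. For every member the tissue therefore cannot be told apart from other differences between the tables.

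*Foxp3* and *Eomes* were at the limit of detection. *Foxp3* had at most 4 reads in any library and *Eomes* at most 2, and *Eomes* had no read in any of the 12 spleen libraries. For the spleen control cells, 0 reads allow up to 0.906 RPM over the 3 libraries of the *Ets1* experiment and up to 0.819 in the *Grk2* experiment, counting error only. No fold is given for these 2 genes, and a fall or a small rise was not detectable at this depth.

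**Figure D1:**
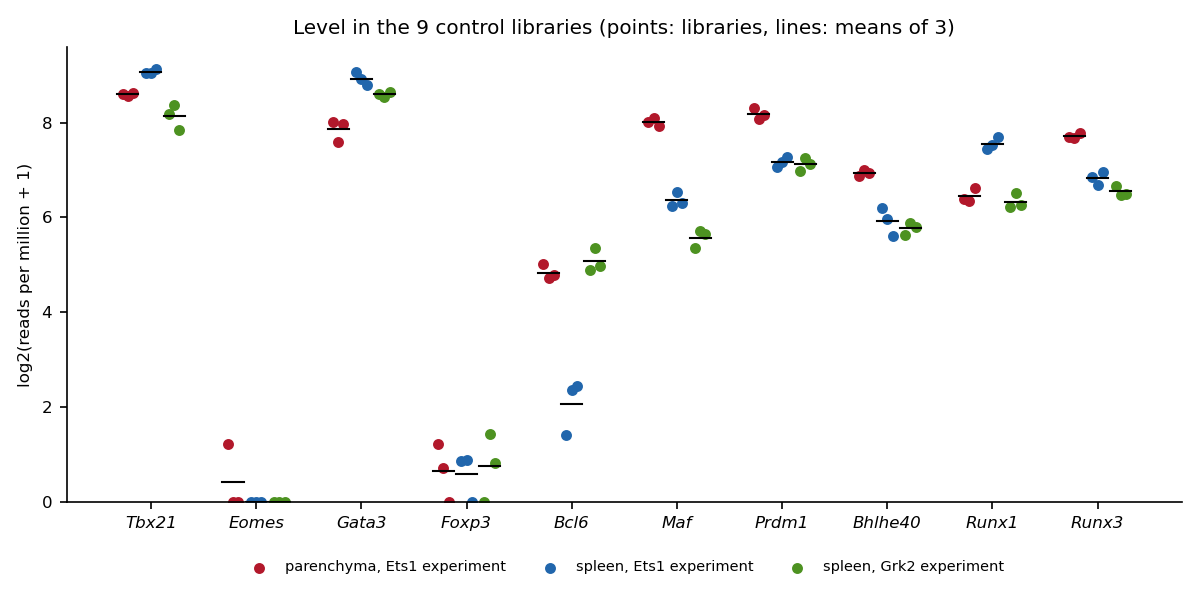
Level of the 10 genes in the 9 control libraries, as log2(RPM + 1) on the vertical axis, with points for libraries, black lines for means of 3 and colours for the tissue and experiment. *Maf*, *Prdm1*, *Bhlhe40* and *Runx3* lay highest in the parenchyma, *Gata3* lay lowest there, and *Bcl6* was at 1.65 to 4.45 RPM in 1 spleen set.

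In the parenchyma, *Ets1*-KO cells were next compared with control cells, using normalized counts, which are reads divided by a size factor per library. The Th1 factor *Tbx21* rose 1.27-fold and was the 1 member of 8 tested that passed, at an adjusted p under 0.05 over all genes in limma with the replicate number as a block. Of all 7002 genes tested there, 366 (5.23%) passed. *Tbx21* had 538, 546 and 558 normalized counts in control cells and 655, 709 and 728 in *Ets1*-KO cells. All KO libraries were above all control libraries, and the log2 fold change, on the scale log2(normalized count + 1) used throughout, was 0.35 (SE 0.08, 95% interval 0.18 to 0.51, adjusted p = 0.00169). The call was lost without replicate 2 (adjusted p = 0.107), with a variance estimate that ignores the level of a gene (0.372) and in DESeq2 on the recovered reads (0.0573), while edgeR on the same reads gave 0.000392.

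*Maf* and *Runx3* also lay apart in the parenchyma, without passing. *Maf* had 359, 396 and 340 normalized counts in control and 403, 493 and 431 in *Ets1*-KO cells (log2 fold change 0.28, SE 0.09, adjusted p = 0.054). *Runx3* had 286, 295 and 308 in control and 353, 390 and 340 in *Ets1*-KO cells (log2 fold change 0.28, SE 0.10, adjusted p = 0.0635). For both genes the lowest KO library was above the highest control library, which with *Tbx21* makes 3 of 8 members whose groups did not overlap, against 18.4% of all genes tested. Both fell under the threshold in some alternatives, with adjusted p-values down to 0.0237 for *Maf* and 0.0294 for *Runx3* in edgeR, and up to 0.524 and 0.618 in DESeq2.

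The Th2 factor *Gata3* was lower in every same-numbered pair of the parenchyma, with 362, 281 and 350 normalized counts in control and 264, 257 and 319 in *Ets1*-KO cells, but the groups overlapped (log2 fold change -0.24, SE 0.10, limma adjusted p = 0.154). *Runx1* had 115, 117 and 137 in control and 95, 130 and 105 in KO cells. *Prdm1* had 443, 391 and 404 against 451, 434 and 422. These ranges overlapped. *Bhlhe40* and *Bcl6* were close to equal, at 174 ± 11.4 against 173 ± 9.98 and 39.3 ± 3.99 against 39.8 ± 5.82 (SD, n = 3). The 95% interval of the log2 fold change was -0.24 to 0.22 for *Bhlhe40* and -0.42 to 0.44 for *Bcl6*. Limma adjusted p-values were 0.602 for *Runx1*, 0.731 for *Prdm1*, 0.984 for *Bhlhe40* and 0.991 for *Bcl6*. The median log2 fold change of the 8 members was 0.04, beside -0.03 over all genes tested.

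In the spleen, *Maf* was the member that passed in *Ets1*-KO cells. It rose 1.48-fold, from 99.5, 118 and 110 normalized counts in control to 154, 140 and 196 in *Ets1*-KO cells. No KO library overlapped a control library (log2 fold change 0.57, SE 0.15, 95% interval 0.26 to 0.87, adjusted p = 0.0422 in limma). This was 1 of 7 members tested, beside 155 of 6979 genes (2.22%). The call was narrow and was lost without the replicate block (adjusted p = 0.0962), without replicate 1 (0.588), without replicate 3 (0.153), with a variance estimate that ignores the level (0.359) and in DESeq2 (0.112). The KO libraries were also the deeper ones here, at 1909862 reads or more against at most 1213485, and the part of depth in this result was not tested.

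*Runx1* had 231, 237 and 288 normalized counts in control and 371, 311 and 317 in *Ets1*-KO cells of the spleen, higher without overlap (log2 fold change 0.40, SE 0.13, limma adjusted p = 0.0966). *Prdm1* was lower without overlap, with 176, 185 and 215 in control and 153, 148 and 161 in KO cells (log2 fold change -0.31, SE 0.13, limma adjusted p = 0.284). With *Maf* these were 3 of 7 members whose groups did not overlap, against 16.9% of all genes tested. *Runx1* came under the threshold without replicate 3 (adjusted p = 0.0121) and in edgeR (0.0331).

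*Tbx21* did not move beyond its spread in the spleen, at 698, 678 and 791 in control and 787, 668 and 639 in *Ets1*-KO cells (log2 fold change -0.05, 95% interval -0.29 to 0.19, limma adjusted p = 0.892). *Gata3* was likewise at 713, 621 and 625 against 624, 673 and 678, with a 95% interval of the log2 fold change from -0.22 to 0.24 (limma adjusted p = 0.973). *Bhlhe40* had 96.3, 79.6 and 67.4 against 67.8, 50.9 and 86.2 (adjusted p = 0.592, limma), and *Runx3* had 151, 131 and 174 against 144, 94.9 and 167 (adjusted p = 0.581, limma). *Bcl6* was below the minimum mean of 10 normalized counts and was not tested in this table. Its control libraries held 2, 5 and 4 reads and its KO libraries 11, 11 and 14, which at the unequal depths came to 1.65 to 4.45 and 5.22 to 6.23 RPM. The median log2 fold change of the 7 members tested was -0.05, beside 0.00 over all genes tested.

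*Grk2*-KO cells of the spleen had no member past the threshold, of 8 tested with limma and beside 109 of 6985 genes (1.56%). With edgeR and DESeq2 the count was also 0, and 1 of the 8 members had an unadjusted p under 0.05, beside 10.4% of all genes tested. That member was *Gata3*, at 494, 483 and 533 normalized counts in control and 434, 414 and 451 in *Grk2*-KO cells, lower without overlap (log2 fold change -0.22, SE 0.08, 95% interval -0.37 to -0.06, adjusted p = 0.207). It was the 1 member of 8 whose groups did not overlap, against 12.2% of all genes tested.

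*Tbx21* had 371, 428 and 304 normalized counts in control and 317, 338 and 384 in *Grk2*-KO cells, and *Maf* had 50.9, 66.5 and 65.8 in control and 44.5, 61.1 and 59.1 in KO cells. *Maf* was lower in each same-numbered pair, but the groups overlapped, and its 95% interval ran from -0.49 to 0.19 (limma adjusted p = 0.819). *Prdm1* was at 180 ± 19.2 in control and 181 ± 11.6 in KO cells (SD, n = 3), with an interval from -0.20 to 0.22. *Bcl6* had 36.9, 52.1 and 40.5 against 55.9, 51.8 and 47.3, *Runx1* 94.3, 116 and 100 against 120, 98.4 and 136, and *Runx3* 129, 114 and 118 against 89.1, 132 and 113. *Bhlhe40* had 61.8, 75.4 and 72.9 in control and 83.0, 94.2 and 45.5 in KO cells. In all of these the ranges overlapped, and limma adjusted p-values lay between 0.67 for *Runx1* and 0.991 for *Prdm1*. The median log2 fold change of the 8 members was -0.03, beside 0.02 over all genes tested.

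**Figure D2:**
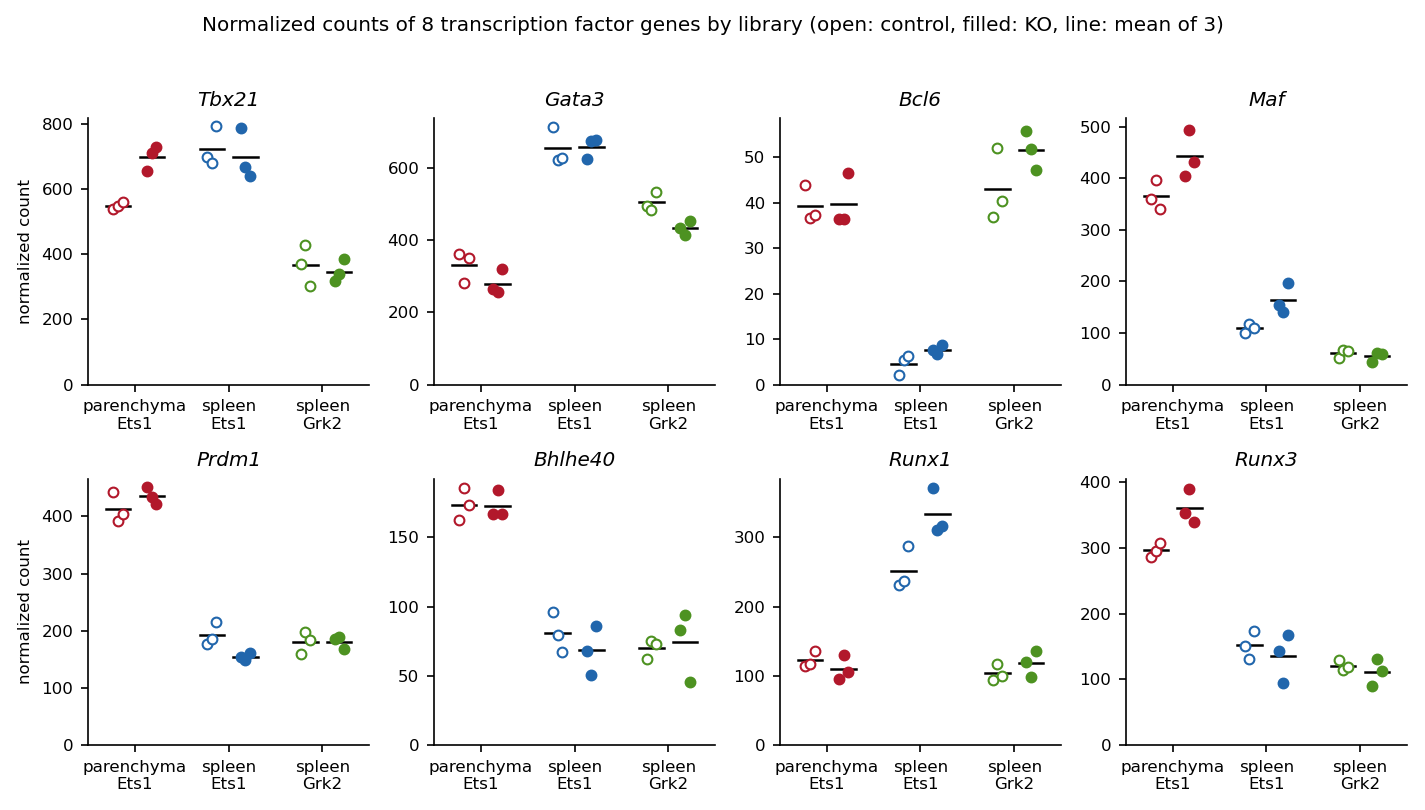
Normalized counts of the 8 members above the limit of detection in all 18 libraries, by table, with open points for control, filled points for KO and black lines for means of 3, each axis starting at 0. *Tbx21*, *Maf* and *Runx3* of *Ets1*-KO cells lay above control in the parenchyma, and *Maf*, *Runx1* and the untested *Bcl6* did so in the spleen. Scales differ between panels, and tables were normalized separately.

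**Figure D3:**
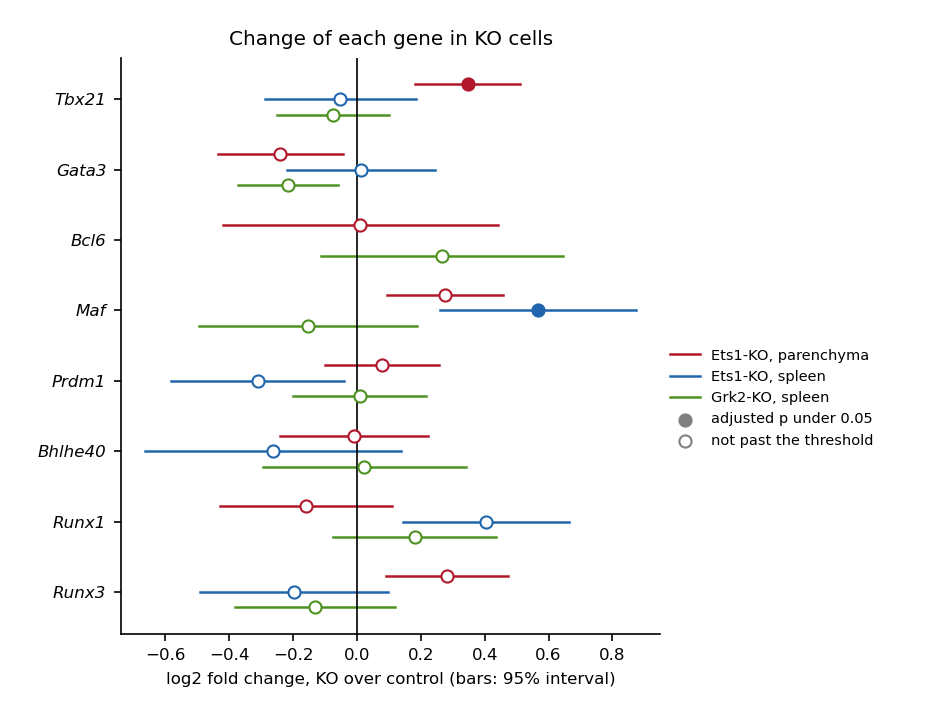
Log2 fold change of KO over control with its 95% interval for each member tested, coloured by comparison and filled where the adjusted p was under 0.05. The filled points are *Tbx21* in the parenchyma (0.35) and *Maf* in the spleen (0.57) of *Ets1*-KO cells. *Bcl6* was not tested in the spleen of the *Ets1* experiment.

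Within each table the exact permutation test of a single gene over the 20 labellings of 3 against 3 libraries cannot go below a two-sided p of 0.1. It reached this value for *Tbx21*, *Maf* and *Runx3* in the parenchyma, for *Maf*, *Runx1*, *Prdm1* and the untested *Bcl6* in the spleen of the *Ets1* experiment, and for *Gata3* in the *Grk2* experiment, which are the members whose groups did not overlap.

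Whether the effect of *Ets1* loss differed between tissues was tested directly on the ratios of same-numbered KO and control libraries. None of 7 members passed with limma, beside 137 of 6520 genes (2.10%). Without adjustment 4 of the 7 members had a p under 0.05, beside 13.8% of all genes tested. The largest difference was that of *Runx1*, whose log2 fold change was -0.16 in the parenchyma and 0.40 in the spleen (difference -0.57, 95% interval -0.94 to -0.19, adjusted p = 0.103). *Runx3* was higher in all 3 pairs of the parenchyma and lower in all 3 of the spleen (0.28 against -0.20, difference 0.48, 95% interval 0.14 to 0.82, adjusted p = 0.133). *Prdm1* was likewise higher in all parenchymal pairs and lower in all splenic pairs (0.08 against -0.31, adjusted p = 0.205). *Tbx21* differed by 0.40 (95% interval 0.12 to 0.68, adjusted p = 0.13), so its change was not shown to differ between the tissues. *Maf* was higher in all 6 pairs of KO and control libraries, and its change was not shown to differ between tissues (difference -0.29, 95% interval -0.63 to 0.05, adjusted p = 0.461).

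Between the 2 edits in the spleen, none of 7 members passed either, beside 126 of 6490 genes (1.94%). *Maf* differed most, with a log2 fold change of 0.57 in *Ets1*-KO and -0.15 in *Grk2*-KO cells (difference 0.72, 95% interval 0.28 to 1.16, limma adjusted p = 0.0796), and it was the 1 member of 7 with an unadjusted p under 0.05, beside 12.9% of all genes tested. *Maf* was higher in all 3 *Ets1* pairs and lower in all 3 *Grk2* pairs. *Tbx21* differed by 0.02 (95% interval -0.29 to 0.34) and *Gata3* by 0.23 (95% interval -0.04 to 0.50).

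**Figure D4:**
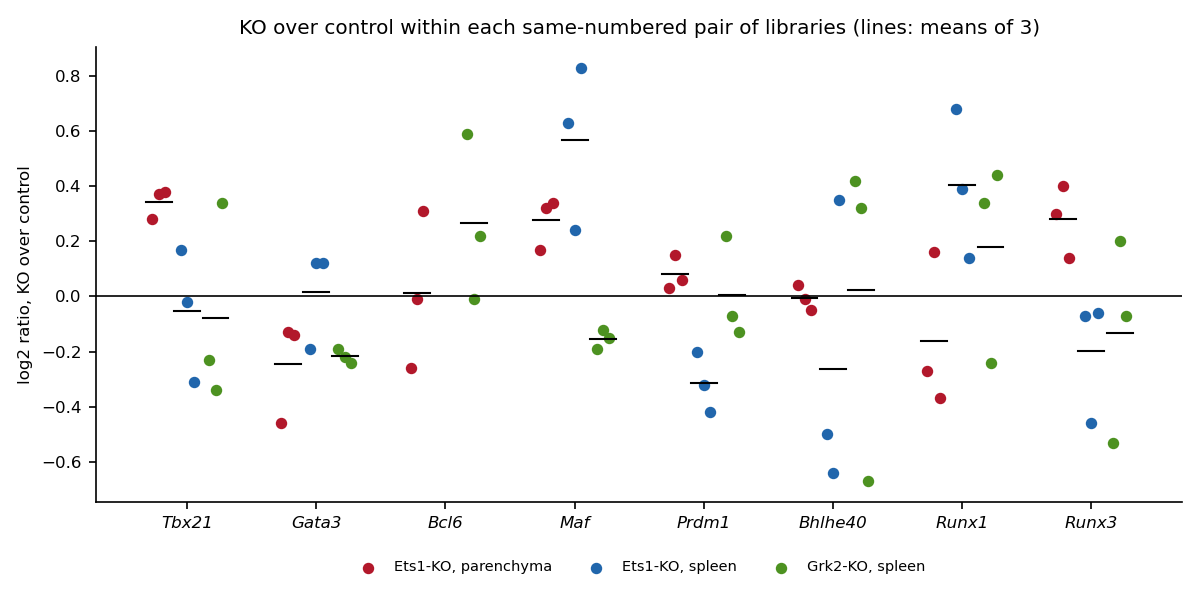
Log2 ratio of KO over control in each same-numbered pair of libraries, with points for the 3 pairs, black lines for their means and colours for the comparison. All 3 pairs of *Tbx21* (0.28, 0.37 and 0.38) lay above 0 in the parenchyma, while *Runx3* and *Prdm1* lay above 0 there and below 0 in the spleen of the *Ets1* experiment.

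Other transcriptional regulators of T helper cells were counted from a list of 29 genes. In *Ets1*-KO cells of the parenchyma 5 of 20 tested passed, 2 higher and 3 lower. *Nfil3*, a repressor of cytokine genes, rose 1.52-fold (139 ± 19.4 to 211 ± 25.7 normalized counts, SD, n = 3, adjusted p = 4.48e-05), and *Batf*, an AP-1 factor of Th17 and follicular cells, rose 1.37-fold (adjusted p = 0.00269). *Lef1* and *Tcf7*, factors of naive and memory-like T cells, fell by 1.19 on the log2 scale (adjusted p = 0.00844) and by 0.86 (adjusted p = 0.00937). *Lef1* was near the minimum mean of 10, with 37.4, 22.6 and 20.6 normalized counts in control and 11.1, 7.08 and 15.9 in KO libraries. The groups of *Tcf7* overlapped, with 47.6, 39.5 and 50.1 in control and 40.4, 14.15 and 26.1 in KO libraries. In the spleen none of 19 passed in *Ets1*-KO cells. In the test of the difference between tissues 1 of 19 passed, beside 2.10% of all genes, and it was none of the genes named above. Their changes were therefore not shown to differ between tissues. In *Grk2*-KO cells *Tox* rose 1.89-fold (adjusted p = 0.00803) and *Lef1* fell by 0.89 (adjusted p = 0.0249), 2 of 18 tested. All these p-values, and those of the lists that follow, are from limma. For this list and those that follow, 5.23%, 2.22% and 1.56% of all genes tested passed in the 3 comparisons with control, in the same order. These lists were chosen with earlier results of these data known, so a count beside its share is a description only. Medians of the list were 0.08, 0.01 and -0.05, beside -0.03, 0.00 and 0.02 over all genes.

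Genes that the lineages are known by were then set beside their factors. Of 12 Th1 genes, all of them tested in the parenchyma, 4 passed in *Ets1*-KO cells and were higher, beside 5.23% of all genes tested. The 4 were the chemokines *Ccl3* (1.51-fold, adjusted p = 3.27e-08), *Ccl4* (1.56-fold, adjusted p = 4.63e-16) and *Ccl5* (1.30-fold, adjusted p = 2.95e-06) and the inhibitory receptor *Havcr2* (2.15-fold, adjusted p = 0.0136). *Havcr2* was near the minimum mean of 10, with 15.9, 10.3 and 9.83 normalized counts in control libraries. The rest of the list, *Ifng* and *Cxcr3* among them, did not pass. In the spleen *Ccl5* rose 1.74-fold in *Ets1*-KO cells (adjusted p = 0.000166, 1 of 9 tested). In *Grk2*-KO cells *Ccl5* fell by 0.59 on the log2 scale (adjusted p = 3.2e-07, 1 of 8), but the groups overlapped. Its normalized counts there were 355.5, 570.9 and 628.4 in control and 341.5, 301.3 and 362 in KO libraries. The median log2 fold changes of the Th1 list were 0.27, -0.02 and 0.08. Myeloid cells also make *Ccl3* and *Ccl4*, and the summed level of the 8 myeloid genes was 16.8 to 32.7 RPM in control and 26.2 to 43.9 RPM in *Ets1*-KO libraries of the parenchyma. The cells had been sorted on BFP or GFP, and the part of myeloid RNA in the chemokine result was not tested.

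Of 10 Th2 genes 2 were tested, *Ccr3*, a chemokine receptor, and *Il4r*, the interleukin-4 receptor chain. *Ccr3* fell by 1.00 in *Ets1*-KO cells of the parenchyma (454 ± 30.3 to 228 ± 36.4 normalized counts, adjusted p = 2.45e-21) and by 1.18 in *Grk2*-KO cells (adjusted p = 8.38e-17), while *Il4r* rose 1.32-fold and 1.81-fold in *Ets1*-KO cells of the parenchyma and spleen (adjusted p = 0.000398 and 0.00188). The other 8 genes of this list were under the minimum. Medians of the 2 tested genes were -0.30, 0.52 and -0.73.

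Of 7 Th17 genes 3 of 4 tested rose in *Ets1*-KO cells of the parenchyma, namely *Ccr6* (2.64-fold, 151 ± 14.1 to 401 ± 28.4, adjusted p = 1.78e-36), *Il22* (1.77-fold, adjusted p = 3.75e-06) and *Il17a* (1.48-fold, adjusted p = 3.01e-07). *Ccr6* rose 2.38-fold in the spleen as well (adjusted p = 0.0343, 1 of 3 tested), and none of 3 passed in *Grk2*-KO cells. Splenic *Ccr6* was near the minimum mean of 10, with 18.6, 19.4 and 9.40 normalized counts in control and 23.3, 57.7 and 38.1 in KO libraries. The KO libraries were the deeper ones there, and the part of depth in this result was not tested. Medians were 0.69, 0.48 and -0.21. Of 10 regulatory T cell genes *Il2ra*, a chain of the interleukin-2 receptor, rose 1.54-fold in *Ets1*-KO cells of the parenchyma (658 ± 17.3 to 1011 ± 46.6, adjusted p = 1.89e-12, 1 of 4 tested). *Il2ra* fell by 0.42 in *Grk2*-KO cells with overlapping groups (adjusted p = 0.00512). In the same cells *Tnfrsf18* fell by 0.60 (adjusted p = 0.00462) and *Nrp1* rose 2.44-fold (adjusted p = 8.69e-05), which made 3 of 4 tested. None of 3 passed in the spleen of the *Ets1* experiment. Medians were 0.03, -0.02 and -0.30. Of 10 follicular helper genes *Icos* rose 1.15-fold in *Ets1*-KO cells of the parenchyma (adjusted p = 0.0421, 1 of 4 tested), with overlapping groups. None of 3 passed in either spleen comparison, and medians were -0.10, 0.20 and -0.06. The lineage factors of these lists, *Foxp3* and *Bcl6*, were below the minimum or not past the threshold in the same tables.

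Every list gene named here lost its call when the variance estimate ignored the level of a gene, where *Ccr6* of the parenchyma came nearest to the threshold (adjusted p = 0.0986). In the parenchyma *Nfil3*, *Ccl3*, *Ccl4*, *Ccl5*, *Ccr3*, *Il4r*, *Il2ra*, *Ccr6*, *Il22* and *Il17a* kept it under the other 12 alternatives. *Lef1*, *Havcr2* and *Icos* lost it without replicate 1 (adjusted p = 0.151 to 0.335), these 3 with *Tcf7* and *Batf* without replicate 2 (0.156 to 0.378), and *Tcf7* without replicate 3 (0.0917). In *Ets1*-KO cells of the spleen *Ccl5*, *Il4r* and *Ccr6* lost it without replicate 1 (0.182 to 0.391), and *Ccr6* also without replicate 2 (0.117) or 3 (0.0971). In *Grk2*-KO cells *Ccr3* kept it, *Tox*, *Lef1*, *Tnfrsf18* and *Il2ra* lost it without replicate 1 (0.17 to 0.403), these 4 with *Ccl5* and *Nrp1* without replicate 2 (0.0969 to 0.486), and *Lef1* without replicate 3 (0.0636). Without the replicate block *Tcf7* and *Icos* of the parenchyma, *Ccr6* of the spleen in *Ets1*-KO cells, and *Tox*, *Lef1*, *Tnfrsf18*, *Il2ra* and *Ccl5* in *Grk2*-KO cells also lost it. In DESeq2 these lost it too, except *Ccr6*, which had no adjusted p there, and so did *Batf* of the parenchyma and *Nrp1* in *Grk2*-KO cells. *Lef1* and *Havcr2* of the parenchyma had no adjusted p in DESeq2 either.

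The genes whose level ran most like that of a called member were sought among 6206 genes over the 6 group means, by the root mean square difference of centred log2(RPM + 1). *Tbx21*, whose group means spanned 1.01, was followed most closely by *Sars1* (0.04). *Maf*, whose group means spanned 2.86, had no gene as near, with *Lbh* at 0.25 and *Rbpjl2* and *Ccl5* at 0.30. With 6 points from 3 separately scaled tables these are descriptions of level across these groups.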

How the data were processed

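Rat T-MBP cells were profiled by 3′ mRNA sequencing in 18 libraries. According to the methods and the submitters' processing notes, the authors aligned reads to Rnor_6.0 with STAR 2.7.2b, counted them per gene with HTSeq 1.0.0 and scaled them with DESeq2 2.11.40.7 (poscounts). The deposited signal values are reads per gene divided by a size factor, in 3 separately scaled tables. All positive values (100%) were whole multiples of 1 step within 0.01, which gave back the reads. Files of the authors' own comparisons (fold changes, p-values, enriched terms) and 8 human per-sample columns were not used.

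The main test was limma 3.58.1 with a variance trend in R 4.3.3, on log2(normalized count + 1), with the replicate number as a block, over genes with a mean of at least 10, Benjamini-Hochberg adjusted over all of them. The block follows the methods, which correct per animal when applicable. Differences between tables were tested on KO over control ratios of same-numbered libraries. Tests were run on simulated data in which all genes had the same dispersion and same-numbered libraries shared a true effect. That run therefore does not cover unequal spread between genes or weak pairing of libraries. edgeR 4.0.16 and DESeq2 1.42.0 on recovered reads, other minima (none, 50), pseudocounts (0.1, 5), scalings and left-out replicates were alternatives. All 10 members were named. Of the other lists at most 5 called genes per comparison were named, and for called members the genes of most alike pattern, at most 3, were given. Some genes that these rules pick are not reported here. The members and lists were chosen with earlier results of these data known. Sequences are from the study's oligonucleotide list and RefSeq (GRCr8). Counting intervals and limits cover counting error only.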

Additional observations from a re-analysis of the deposited data

Results flagged for a closer look

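For 3 members every same-numbered pair of libraries moved one way in one comparison and the other way in another, although the test of the difference did not pass. Such opposite pairs were found in 2 of 7 members between tissues, beside 5.77% of all genes tested, and in 1 of 7 between edits, beside 5.86%, and the replicate numbers paired the libraries only in part. The pairs of *Runx3* and *Prdm1* were higher in *Ets1*-KO cells of the parenchyma and lower in those of the spleen. The log2 differences between the effects were 0.48 (limma adjusted p = 0.133) and 0.39 (adjusted p = 0.205). Neither gene passed against control in either tissue. Some pairs were near 0, with 0.03, 0.15 and 0.06 for *Prdm1* in the parenchyma and -0.07, -0.46 and -0.06 for *Runx3* in the spleen. *Maf* was higher in *Ets1*-KO and lower in *Grk2*-KO cells of the spleen, with a difference of 0.72 (adjusted p = 0.0796).

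Among genes of the other lists the test of the difference itself passed in limma. On the log2 scale, the effect of *Ets1* loss in the parenchyma minus that in the spleen was 1.57 for *Ccl4* (adjusted p = 6.52e-06). This difference was 1.03 for *Ccl3* (0.00408), -1.18 for *Ccr3* (2.16e-05) and 0.72 for *Il2ra* (0.00347). For *Ccl4* it was made up of 0.64 in the parenchyma and -0.93 in the spleen, where the gene did not pass (adjusted p = 0.161). For *Ccl3* the parts were 0.60 in the parenchyma and -0.44 in the spleen, the latter also not past the threshold (0.386). The splenic effects of *Ccr3* (0.19, adjusted p = 0.607) and *Il2ra* (-0.10, 0.793) did not pass either. The effect of *Ets1* loss minus that of *Grk2* loss in the spleen was 1.39 for *Ccl5* (adjusted p = 9.16e-07), 1.37 for *Ccr3* (1.02e-05), 1.15 for *Il4r* (5.18e-05) and 1.61 for *Ccr6* (0.00696). All of these were lost without the variance trend. The call for *Ccl3* was also lost without replicate 3 (adjusted p = 0.0905), that for *Il2ra* without replicate 1 (0.0936), and that for *Ccr6* without replicate 2 (0.184) or 3 (0.129).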

How the results depend on the processing

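Of 450 alternative values for the effects on members, 411 kept their direction and their side of the threshold, 8 lost a call, 10 gained one and 21 turned in direction, none of them in an effect that passed the threshold. The cause of each change was not tested. The replicate numbers paired the libraries only in part. Correlations of deviations between same-numbered libraries were 0.1949, 0.3142 and -0.019 in the parenchyma, 0.1181, 0.0752 and 0.2713 in the spleen of the *Ets1* experiment and 0.2757, 0.0753 and 0.2374 in the *Grk2* experiment, not all above 0.1. Without the replicate block, called genes numbered 200 in place of 366 in the parenchyma, 71 in place of 155 in the spleen of the *Ets1* experiment (members 0 in place of 1) and 19 in place of 109 for *Grk2*, and 47 in place of 137 and 43 in place of 126 for the differences between tissues and between edits. It changed no other member's call.

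Without the variance trend 3, 0, 0, 2 and 0 genes were called in the same order, and no members. DESeq2 called 84, 59 and 13 genes in the 3 comparisons with control and 0 members, and edgeR called 3 members in the parenchyma and 2 in the spleen of the *Ets1* experiment. With no minimum 212 and 242 genes were called in the parenchyma and spleen for *Ets1*, and with a minimum of 50, 60 genes for *Grk2* and 3 members in the parenchyma. Quantile normalization gave 2 and upper quartile scaling 3 members there. Leaving out 1 replicate number gave 163 to 277, 3 to 232 and 6 to 50 genes against control, 28 to 112 and 19 to 57 for the differences, and 0 to 2 members in the parenchyma and 0 to 1 in the spleen of the *Ets1* experiment. The fall to 3 came without replicate 1, and that to 6 without replicate 2.

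The directions that turned were as follows. *Bhlhe40* in the parenchyma was 0.013 under the upper quartile, 0.018 in edgeR and -0.032 to 0.014 over left-out replicates. Over left-out replicates *Bcl6* there was -0.14 to 0.15, *Tbx21* in the spleen -0.16 to 0.076 for *Ets1* and -0.28 to 0.056 for *Grk2*, and *Gata3* in the spleen of the *Ets1* experiment -0.039 to 0.12 and -0.020 with quantile normalization. For *Grk2*, *Bhlhe40* was -0.17 to 0.37, *Runx3* -0.30 to 0.066 and *Prdm1* -0.098 to 0.078 over left-out replicates, and *Prdm1* was -0.0059 when quantiles were equalised, -0.014 under the upper quartile and -0.0054 in edgeR. The difference between edits was -0.16 to 0.36 for *Tbx21*, -0.94 to 0.050 for *Bhlhe40* and -0.33 to 0.24 for *Runx3*. Of 64 alternative control levels 61 held. The log2 ratio of parenchyma over spleen was -0.40 for *Tbx21* (*Ets1* experiment) and 1.30 for *Runx3* (*Grk2* experiment) with the authors' normalized counts, in place of -0.48 and 1.17, and for *Runx1* (*Grk2* experiment) -0.01 to 0.26 over left-out replicates. Each gene left 2 residual degrees of freedom, so calls lean on the variance shared across genes. In the main fit this shared variance counted as 21.97 further degrees of freedom in the spleen of the *Ets1* experiment and 141.3 for *Grk2*. In the parenchyma the number was not finite, so a gene's own spread there did not enter its limma p-value. Without the variance trend these numbers were 3.533, 3.046 and 3.254. At 898092 to 2248258 reads, *Eomes* and *Foxp3* could not be followed.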
